A study of Rattus norvegicus with 8 samples.

Results

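The cytosolic ribosome is built from a small and a large subunit, each a set of proteins on ribosomal RNA. The genes examined here are those whose array name starts with Rps (small subunit) or Rpl (large subunit) followed by a digit, with Rpsa and the stalk proteins Rplp0, Rplp1 and Rplp2. The S6 kinases and the mitochondrial ribosomal proteins do not enter by that rule. It found 96 gene names on 168 of the 30367 probes of the array. Of these names, 91 were measured well enough to be tested, among 17683 tested features in all (a feature is a gene, shown by its brightest tested probe, or a probe with no gene name). One of the 96, Rps19bp1, is named for its binding to Rps19 and is not a ribosomal protein; it was not tested.

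Liver RNA of 8 male Fisher 344 rats, aged 18 weeks, was hybridised to Agilent rat expression arrays in 1 colour, 1 rat an array. The furan group held 4 rats dosed by gavage with furan, 8 mg per kg of body weight, for 90 days and 5 days in each week. The other 4 rats were controls, and what the controls were given is not stated in the sources used here. All were killed 24 hours after the last dose, and the livers were frozen whole, so each array reads all cell types of the tissue at once. Furan is a volatile ring compound found in heated food that the liver converts to a reactive aldehyde.

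Ribosomal protein mRNAs are among the most abundant of a cell, and their products are needed in near equal numbers. In vertebrates many of these mRNAs begin with a cytosine followed by a run of pyrimidines, the 5′ terminal oligopyrimidine tract, through which growth signalling by mTOR sets how well they are translated. Free Rpl5 and Rpl11 bind Mdm2 when ribosome assembly is disturbed, which links the ribosome to p53.

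The start of the gene is shown first because it is what these genes are best known to share. RefSeq promoters (build GRCr8) were matched by gene symbol for 78 of the 96 names. For some names, Rpl5l1 and Rpl22l2 among them, the promoter lies on another chromosome than the probe's annotated position. The promoter counts below, with and without a motif, include such names. Each line gives 15 bases before the annotated start and 20 from it, 5′ to 3′ on the gene's strand, and capitals mark the run of C and T that begins at the start.

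Rps26 (chr7:1643385-1643419, minus strand): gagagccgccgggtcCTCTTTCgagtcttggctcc

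Rps18 (chr20:4933730-4933764, plus strand): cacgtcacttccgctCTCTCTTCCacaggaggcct

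Rplp1 (chr8:71290853-71290887, minus strand): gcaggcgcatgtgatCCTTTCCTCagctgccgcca

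Rps27 (chr2:177964587-177964621, minus strand): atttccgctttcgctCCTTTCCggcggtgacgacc

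Rpl10 (chrX:157205835-157205869, plus strand): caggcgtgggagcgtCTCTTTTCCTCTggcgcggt

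Rps19 (chr1:89608673-89608707, plus strand): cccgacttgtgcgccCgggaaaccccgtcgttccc

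The first 3 of these genes were called higher after furan and the next 2 were not. Rps19, which rose most by its brightest probe, has no such run at its annotated start. A C at the start with C or T at each of the next 4 bases was found in 24 of the 78 promoters (30.8%), against 2.63% of 27457 promoters in all. Of the 24 genes, all tested, 16 were called higher, with a median log2 change of 0.39; of the 50 tested genes without it, 33 were called, with a median of 0.43. The annotated start can lie some bases from the true one, so a looser search took 8 letters in a row of C or T from 10 bases before to 18 after the start: it matched 42 of 78 (53.8%) against 9.92% of all promoters, and 27 of 41 tested genes with it were called higher against 22 of 33 without. The genes with and without a match were not compared by a test.

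A search for the 10-letter palindrome held by the largest number of these promoters found TCTCGCGAGA, which lay in 8 of the 78 (10.3%), against 0.433% of all promoters of the same length; the next palindrome lay in 2. It was picked for its count in these promoters, so that count is a description. These were Rpl10a, Rpl17, Rpl26, Rpl4, Rps19, Rps28, Rps6 and Rps7. All 8 were called higher, with a median log2 change of 0.47, while 41 of the 66 tested genes without it were called, with a median of 0.41. Over all features 17.3% were called higher. The genes with and without the palindrome were not compared by a test. The lines below show it in capitals with 10 bases on each side for 5 of these genes; its first base is at position -32 from the annotated start in Rps19, -77 in Rps6, -17 in Rps7, -52 in Rpl10a and -61 in Rps28.

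Rps19 (chr1:89608646-89608675, plus strand): ccctccgaaaTCTCGCGAGActcgacgccc

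Rps6 (chr5:106420598-106420627, minus strand): ctcgggctatTCTCGCGAGAacttagagtg

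Rps7 (chr6:50999443-50999472, minus strand): tatgagctgtTCTCGCGAGAgctgtgtctc

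Rpl10a (chr20:6390471-6390500, plus strand): aacgagccatTCTCGCGAGAgcacgagctc

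Rps28 (chr7:15311375-15311404, minus strand): ctgcgtgcggTCTCGCGAGAgcggaagtga

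Other motifs were searched on both strands of the 300 bases (250 before the start, 50 after). CGGAAG, the core bound by Ets-family factors, was in 53.8% of the genes' promoters against 17.4% of all, and AAGATGGC, the core bound by Yy1, in 8.97% against 3.44%. CACGTG, the E-box that Myc can bind, was in 6.41% against 6.65%, and TATAAA in 12.8% against 14.3%. These matches describe letters only and show no binding.

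Ribosomal protein mRNAs were higher in the livers of furan-treated rats, mostly by a small amount, with a range given below. Of 91 tested genes, 59 were called higher, none was called lower and 32 were not called (limma on all features, Benjamini-Hochberg adjusted p below 0.05); over all features 17.3% were called higher and 16.9% lower. At an unadjusted p below 0.05, 72 were higher and again 0 lower, against 22.4% and 23.2% of all features. The log2 change was above 0 for 89 of 91, with a median of 0.42 (1.34-fold), quartiles of 0.30 and 0.53 and a range of -0.08 to 1.00, beside a median of -0.03 over all features. Read by its brightest probe, 1 gene, Rps19, had a change of 2-fold or more. A second, dimmer probe of Rpsa changed by more, 1.25. The calls nearest the threshold were Rps28, Rps4y2 and Rpl19 (limma adjusted p = 0.0419, 0.043 and 0.046), and Rpl8, Rps27l and Rps14 just missed it (0.0504, 0.0526 and 0.0535). On every array the log2 level is set to 0 at the array's 75th percentile of all non-control spots, so each change is relative to that percentile. When the arrays were instead scaled to the median of their spots, the median change was 0.35. The genes called higher numbered 8 (8.79%), below the 10.2% of all features called higher with that scaling. Without control array 3, 34 were called, beside 2264 of all 17683 features (3057 with all 8 arrays).

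**Figure D1:**
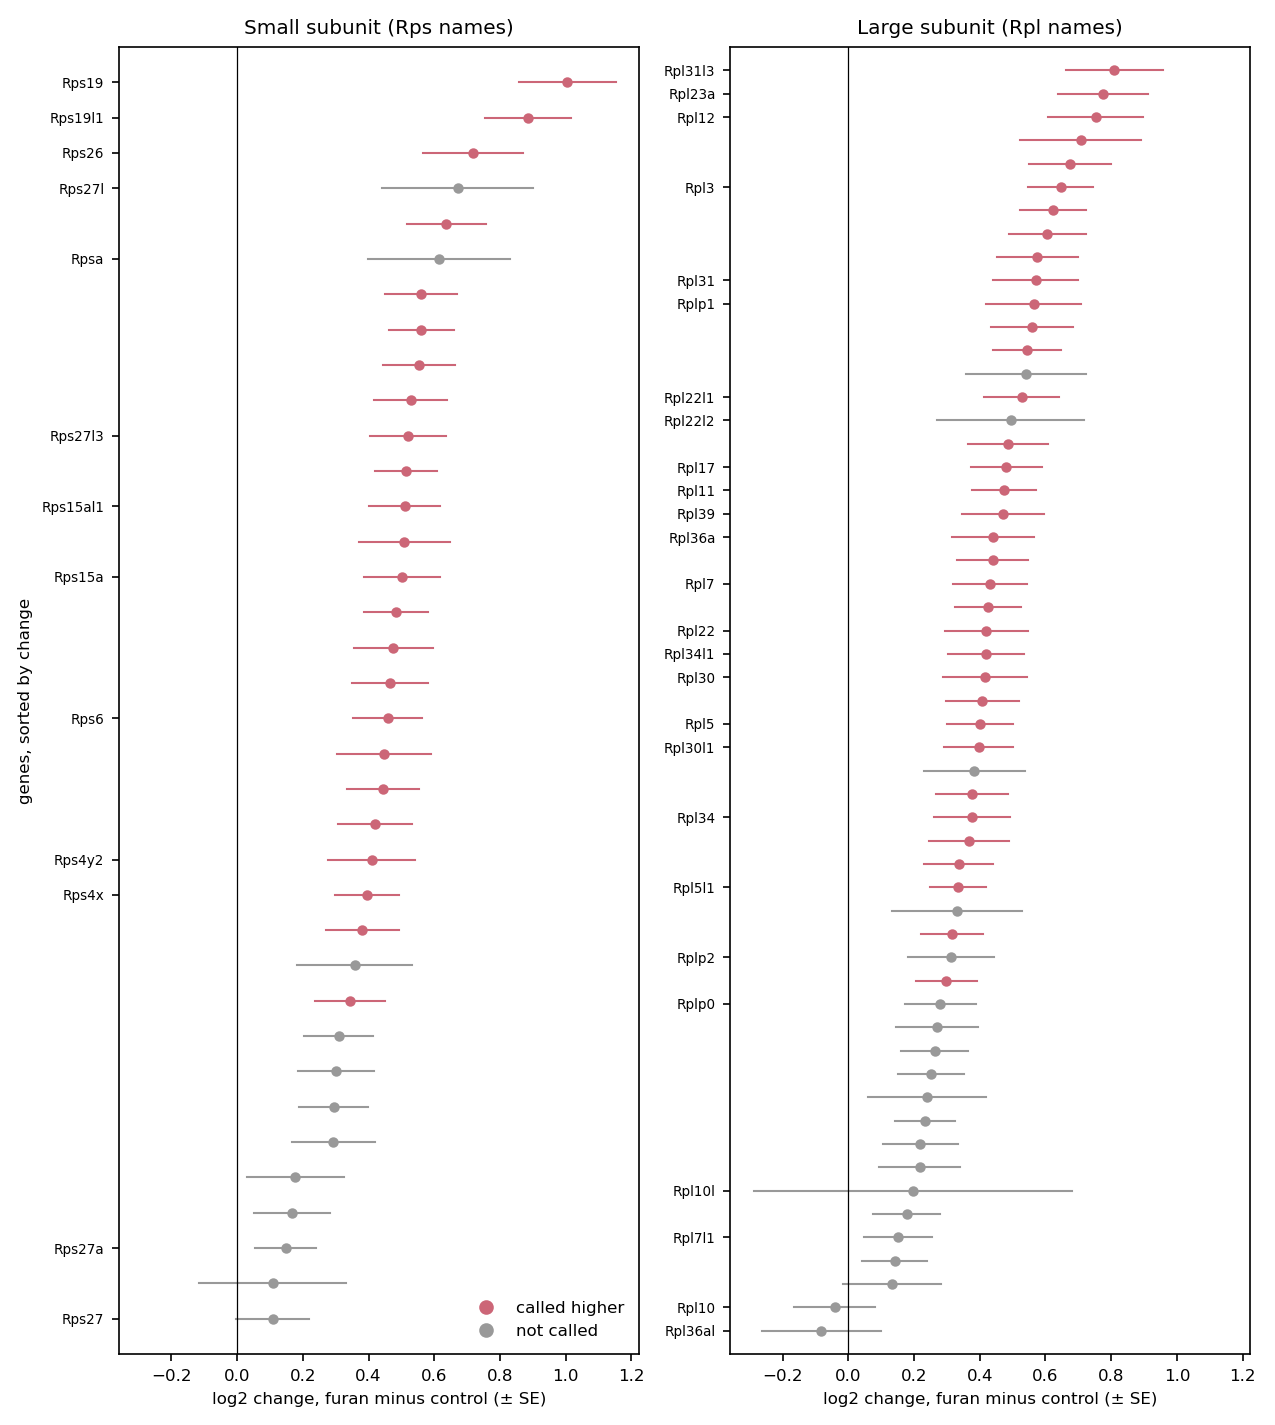
Log2 change, furan minus control, of each of the 91 tested ribosomal protein genes (point) with its standard error (line), for small subunit names (left) and large subunit names (right), 4 rats a group. Gene names are given at the axis for the genes that the naming rule of the methods selects. Red marks the 59 genes called higher by limma at adjusted p below 0.05. All but 2 points, Rpl10 and Rpl36al, lie above 0, and Rps19 is the highest.

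These are bright probes, so the calls were set beside those of the other features in the brightest 10%, without matching of level within it. In the brightest 10% of features lay 77 of the 91 genes, of which 50 were called higher, with a median change of 0.42. The other 1692 features of that 10% had a median of -0.10, with 350 called higher (20.7%) and 476 lower (28.1%). The 14 dimmer ribosomal protein genes had a median of 0.51 and 9 were called higher. With quantile normalization 76 of the genes were called higher (all features 18.9%), with cyclic loess 68 (20.6%), and with each array centred on the brightest features that are not members 60 (16.2%).

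**Figure D2:**
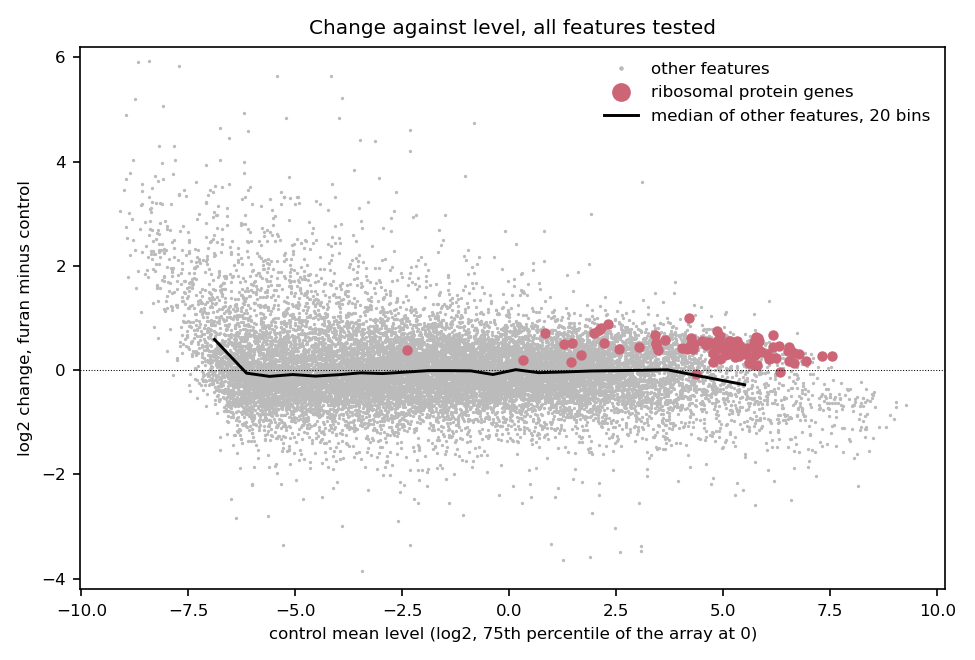
Log2 change, furan minus control, against the control mean level for all 17683 tested features (grey) and the 91 ribosomal protein genes (red). The black line joins the median change of the other features in 20 bins of level; the ribosomal protein genes sit mostly above it at the bright end.

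The rise was present in each furan rat, at different heights. The median over the 91 genes of the difference from the gene's control mean was 0.36 on furan array 1, 0.45 on array 2, 0.27 on array 3 and 0.63 on array 4. On the control arrays 1 to 4 it was 0.05, -0.01, -0.04 and 0.01. The level on furan array 4 was the highest of all 8 arrays for 85 of the 91 genes (93.4%). Of the features called higher in all, 40.0% were highest on that array, and of all features 20.6%. The lowest furan value was on array 3 for 47 genes and on array 1 for 37. The median standard deviation of a gene was 0.17 among furan rats and 0.07 among controls; over all features these medians were 0.25 and 0.18. Without furan array 4 the median change was 0.36, with 47 genes called higher, beside 2704 of all 17683 features.

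**Figure D3:**
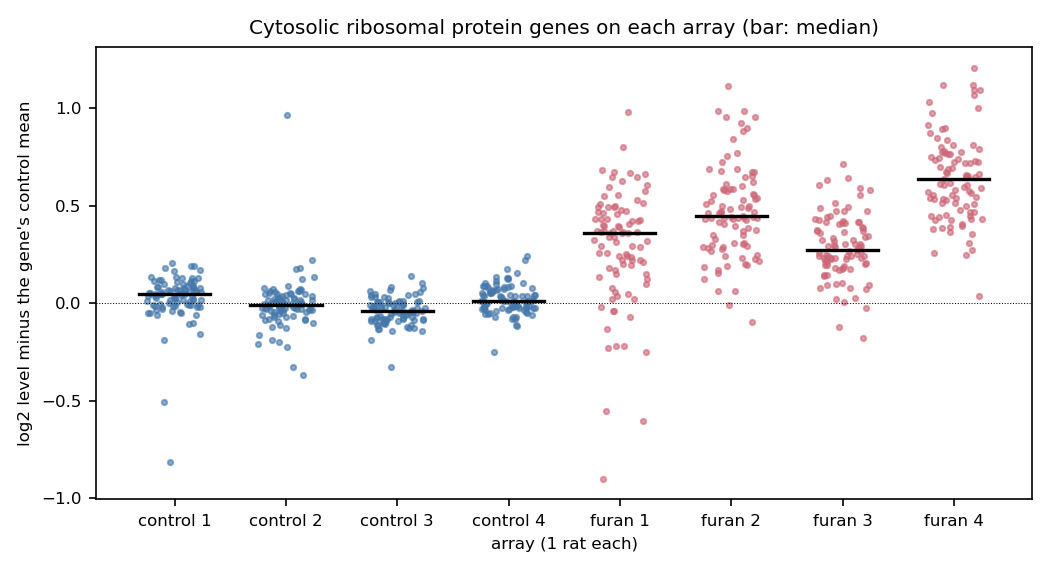
Log2 level minus the gene's control mean for the 91 ribosomal protein genes on each of the 8 arrays (blue control, red furan), with the median as a bar. Furan array 4 has the highest median, 0.63, and furan array 3 the lowest of the furan arrays, 0.27; the most extreme control points on arrays 1 and 2 are those of Rpl10l.

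For 66 of the 91 genes, all 4 furan values lay above all 4 control values, a pattern that 18.8% of all features showed. The arrays came on 2 slides, each with 2 control and 2 furan arrays. The median change was 0.41 within slide 1, where 85 of 91 genes were positive, and 0.46 within slide 2, where 91 were; with 2 rats a group, no gene was called within a slide (limma; 23 higher on slide 1 and 38 on slide 2 at an unadjusted p below 0.05, where 13.8% and 16.7% of all features were). With the slide as a block, 54 genes were called higher, beside 3042 of all 17683 features.

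Among the small subunit genes, 24 of the 36 tested were called higher, with a median log2 change of 0.46. Rps19, a protein needed to mature the small subunit's RNA and mutated in Diamond-Blackfan anaemia, stood highest by its brightest probe. Its log2 levels were 4.23, 4.42, 4.19 and 3.95 in control rats 1 to 4 and 5.18, 5.31, 4.91 and 5.41 in furan rats 1 to 4, the order kept for every gene below. The groups did not overlap, and the change was 1.00 ± 0.15 (SE, 4 rats a group; 2.01-fold; limma adjusted p = 0.00221). Rps19 is read by 3 probes, whose changes were 0.90, 1.00 and 1.03, all called higher. The 2 of them that lie inside the gene's coding part are shown with the probe of the paralogue Rps19l1 (rn4 coordinates of the array annotation). They were chosen because this was the largest rise by brightest probe and because the paralogue rose with it.

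Rps19 (chr1:80177549-80177608, plus strand): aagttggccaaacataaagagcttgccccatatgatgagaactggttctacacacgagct

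Rps19 (chr1:80180904-80180963, plus strand): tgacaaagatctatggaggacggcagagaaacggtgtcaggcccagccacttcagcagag

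Rps19l1 (chr7:108155369-108155428, minus strand): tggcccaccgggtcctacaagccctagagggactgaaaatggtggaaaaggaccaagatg

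The first of these probes gave a change of 0.90 ± 0.13 (SE) and the second 1.03 ± 0.14. Rps19l1 measured 2.44, 2.36, 2.17 and 2.27 in controls and 3.11, 3.30, 2.94 and 3.43 after furan, a change of 0.88 ± 0.13 with no overlap (limma adjusted p = 0.00225). RNA of a gene and of a near-identical copy can bind one another's probes, so their levels may not be separate measurements.

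Rps26, which lies at the mRNA exit site of the small subunit, rose by 0.72 ± 0.15 (limma adjusted p = 0.00848). Its levels were 1.03, 0.84, 0.69 and 0.78 in controls and 1.50, 1.56, 1.25 and 1.90 after furan, again without overlap. Rps6, the target of the S6 kinases, rose by 0.46 ± 0.10 (limma adjusted p = 0.0114), from 5.42, 5.35, 5.34 and 5.39 to 5.75, 5.85, 5.70 and 6.04. Rpsa, the laminin receptor protein of the small subunit, read 4.27, 4.27, 4.23 and 4.23 in controls and 4.21, 5.17, 4.83 and 5.25 after furan. Furan array 1 lay at the control level and the other 3 far above it, and the change of 0.62 ± 0.22 was not called (limma adjusted p = 0.0574). The second, dimmer Rpsa probe gave 1.25 and was called higher, so the call turned on the probe.

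At the low end of the small subunit, Rps27, a zinc-finger protein, read 5.68, 5.68, 5.69 and 5.81 in controls and 5.68, 5.90, 5.69 and 6.02 after furan. The groups overlapped and the change of 0.11 ± 0.11 was not called (limma adjusted p = 0.483). Rps27a, which is made as a fusion with ubiquitin, had a change of 0.15 ± 0.09 and was not called either (limma adjusted p = 0.25). Its levels were 4.82, 4.70, 4.77 and 4.70 in controls and 4.93, 4.81, 4.84 and 5.00 after furan. The Rps27 paralogue Rps27l, a p53 target, read 3.59, 3.04, 3.36 and 3.62 in controls and 3.50, 4.29, 4.01 and 4.50 after furan. Furan array 1 lay among the controls, and the change of 0.67 ± 0.23 stayed just short of a call (limma adjusted p = 0.0526). Rps27l3, an Rps27 copy by its name only, was called higher by 0.52. Its probe's bases encode a stretch close to ubiquitin, so it may not read a copy of Rps27.

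Of the 55 tested large subunit genes, 35 were called higher, with a median log2 change of 0.41. The largest called rises were those of Rpl31l3, an Rpl31 copy by its name, at 0.81 ± 0.15 (limma adjusted p = 0.00466), Rpl23a, which lies by the exit of the peptide tunnel, at 0.78 ± 0.14 (limma adjusted p = 0.00425), and Rpl12, at the base of the stalk, at 0.75 ± 0.14 (limma adjusted p = 0.00564). Rpl23a measured 2.21, 2.08, 2.02 and 2.07 in controls and 2.74, 3.08, 2.59 and 3.07 after furan. Rpl12 measured 5.02, 4.81, 4.66 and 4.91 in controls and 5.50, 5.69, 5.34 and 5.88 after furan. The groups did not overlap for any of these genes.

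The Rpl31l3 levels were 2.09, 1.98, 2.22 and 2.27 in controls and 2.69, 3.10, 2.79 and 3.24 after furan, and Rpl31 itself rose by 0.57 ± 0.13. Rpl3, which lies close to the peptidyl transferase centre, had one of the smallest errors of the set, at 0.65 ± 0.10 (limma adjusted p = 0.00248). Its levels were 4.92, 4.98, 4.84 and 4.96 in controls and 5.60, 5.54, 5.44 and 5.72 after furan.

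Rpl5 and Rpl11, which carry the 5S RNA into the ribosome and bind Mdm2 when free, were both called higher. Rpl5 read 4.84, 4.77, 4.86 and 4.93 in controls and 5.35, 5.14, 5.15 and 5.37 after furan, a change of 0.40 ± 0.10 (limma adjusted p = 0.0166). Rpl11 read 5.77, 5.78, 5.82 and 5.79 in controls and 6.23, 6.28, 6.13 and 6.43 after furan, a change of 0.47 ± 0.10 (limma adjusted p = 0.00754). Neither pair of groups overlapped. The Rpl5l1 probe lies 104 bases from the Rpl5 probe and was called higher by 0.33, so it reads the same locus.

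The stalk proteins, which recruit the elongation factors, gave mixed calls. Rplp1 rose by 0.56 ± 0.15 (limma adjusted p = 0.0187), from 5.24, 5.14, 5.06 and 5.11 to 5.53, 5.82, 5.43 and 6.03. Rplp0 read 7.42, 7.35, 7.23 and 7.24 in controls and 7.60, 7.60, 7.41 and 7.75 after furan, and its change of 0.28 ± 0.11 was not called (limma adjusted p = 0.0772). Rplp2 changed by 0.31 ± 0.13 and was not called (limma adjusted p = 0.0964); furan arrays 1 and 3, at 6.89 and 6.90, lay below the highest control, 6.94. A second, dimmer Rplp0 probe gave 0.54 and was called higher.

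Rpl10, one of the last proteins to join the large subunit, was one of the 2 genes with a change below 0. It read 6.45, 6.31, 6.22 and 6.34 in controls and 6.19, 6.23, 6.15 and 6.58 after furan, a change of -0.04 ± 0.12 (limma adjusted p = 0.821), and its 3 probes gave changes of 0.02, 0.04 and -0.04. The 95% interval of its change, -0.32 to 0.24, lay below the median change of the set, as did those of Rps27 (-0.15 to 0.36) and Rps27a (-0.06 to 0.36). These intervals are each for a single gene and are not adjusted for the number of genes read. The other gene with a change below 0 was Rpl36al, at -0.08 ± 0.18, with an interval of -0.50 to 0.33. Its probe's transcript now carries the symbol Rpl36al1.

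Genes whose names have the form of a paralogue or copy were counted apart. The form alone decided, so Rps4x, Rpl5l1 and Rpl22l2 are included, and not all need be separate copies. Of 15 tested, 10 were called higher, with a median log2 change of 0.42, against 49 of the 76 other genes, also with a median of 0.42. Rpl22l1, a paralogue of the RNA-binding protein Rpl22, rose by 0.53 ± 0.11 beside 0.42 ± 0.13 for Rpl22. The Rpl22l2 probe changed by 0.49 ± 0.22 and was not called. It starts 36 bases from that of Rpl22l1 in the array annotation and shares a run of 24 bases with it, so both lie at the same locus. Rps15al1 rose by 0.51 beside 0.50 for Rps15a, Rpl30l1 by 0.40 beside 0.42 for Rpl30, and Rpl34l1 by 0.42 beside 0.38 for Rpl34. Rps4x rose by 0.40 and Rps4y2, named for the Y-linked form, by 0.41. Rpl7l1, a paralogue that acts in large subunit assembly, had a change of 0.15 ± 0.10 and was not called, beside 0.43 for Rpl7. Rpl36a, Rpl39 and Rpl17, the parents of other copies, were each called higher, by 0.44, 0.47 and 0.48.

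Rpl10l differed widely between rats within each group. It read -0.51, 1.28, -0.02 and 0.49 in controls and -0.59, 1.27, 0.32 and 1.03 after furan. The order by replicate number was the same in controls and furan rats, and its second probe gave that order too. Its probes' transcript now carries the symbol Rpl10l1. The 5 untested names were Rpl17l1, Rpl31l1, Rpl3l, Rpl39l and Rps19bp1. For 4 of them the probe was well above background on at most 1 of the 8 arrays. Rpl39l was so on 3 of the 4 furan arrays and on no control array: its levels were -2.10, -4.21 and -4.97 on furan arrays 2, 3 and 4, while furan array 1, at -7.81, and the controls, from -9.19 to -7.49, were not well above background.

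For 52 genes more than 1 probe was tested. Over single probes of all the tested genes, 109 were called higher (67.7%, against 16.9% of all probes), none lower and 52 were not called, and 3 had a change below 0. For 36 of the 52 genes every probe had the same call. The dimmer probes gave on average the larger change for 35 of 52, with a median difference of 0.04 and a largest difference of 0.64, in Rpsa. For 10 genes the brightest probe was not called while a dimmer one was, so that 69 genes had at least 1 probe called higher and 22 had none. The 2 Rpl14 probes are shown because the call turned on which of them was read; the second one includes the stop codon and the first lies upstream of it. This gene was chosen after its values were seen.

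Rpl14 (chr8:125583392-125584222, plus strand, across an intron): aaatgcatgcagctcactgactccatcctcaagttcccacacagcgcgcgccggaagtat

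Rpl14 (chr8:125584888-125584947, plus strand): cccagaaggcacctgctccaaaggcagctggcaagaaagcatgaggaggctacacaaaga

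The first Rpl14 probe read 3.09, 3.15, 3.13 and 3.23 in controls and 4.06, 3.90, 3.59 and 3.99 after furan, a change of 0.74. The second and brighter Rpl14 probe read 6.96, 6.95, 6.88 and 6.91 in controls and 7.01, 7.09, 7.003 and 7.31 after furan, a change of 0.18. The groups were separate on both, but the sizes differed.

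Ribosomal proteins that the naming rule leaves out were read the same way. Rack1, a scaffold on the small subunit, rose by 0.97 ± 0.17 (limma adjusted p = 0.00419), from 1.90, 1.85, 1.77 and 1.92 to 2.67, 3.07, 2.42 and 3.17. Fau, the fusion precursor of a small subunit protein, changed by 0.10 ± 0.11 and was not called (limma adjusted p = 0.55).

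Genes that build the ribosome were read from lists of the pathway. Their counts are read beside the 17.3% of all features called higher and 16.9% called lower. Of 44 tested genes for assembly of the large subunit, 20 were called higher (45.5%) and 1 lower, with a median log2 change of 0.31. Of 41 for the small subunit, 10 were higher (24.4%) and 2 lower, with a median of 0.27. The largest called rises were Sdad1 (1.28) and Tma16 (0.99) for the large subunit and Rrp12 (0.91) and Pno1 (0.66) for the small. Imp3, a small subunit processome protein, fell by 0.63, Mphosph10 of the same complex by 0.34 and Gnl3l by 0.39. Whether these shares differ from that of the ribosomal proteins was not tested.

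Of 19 genes for transcription of ribosomal RNA, 5 were called higher (26.3%) and none lower, with a median of 0.15. Among them were Taf1b (0.78), Polr1e (0.56) and Polr1a, the largest subunit of RNA polymerase I, at 0.40 (limma adjusted p = 0.0482). Of 17 nucleolar scaffold and RNA modification genes, 3 were called higher (17.6%, near the 17.3% of all features), with a median of 0.10. Nhp2, a box H/ACA protein, rose by 1.13 and its partner Gar1 by 0.54. The abundant nucleolar proteins were not called: nucleolin (Ncl) changed by 0.28, fibrillarin (Fbl) by 0.28 and nucleophosmin (Npm1) by 0.03.

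Of 38 initiation factors, 12 were called higher (31.6%) and 4 lower (10.5%), with a median of 0.19. Eif2b2, a subunit of the exchange factor of eIF2, rose by 1.14 and Eif1ax by 0.59, while Eif1b fell by 0.54 and Eif1a by 0.51. Of 10 elongation factors, 3 were called higher (30%), with a median of 0.19, Eef1g by 0.56 and Eef2k, the kinase of eEF2, by 0.53. Eef1a1 and Eef2, whose mRNAs also carry the pyrimidine tract, changed by -0.09 and -0.04 and were not called.

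Of 22 tested growth regulators, 2 were called higher and 2 lower, 9.09% each way, below the 17.3% and 16.9% of all features, with a median of 0.03. Ddit4l, an inhibitor of mTOR complex 1, rose by 4.46 and Eif4ebp1, the cap-binding inhibitor that mTOR silences, by 0.91, while Deptor, which binds mTOR, fell by 0.93 and Max, the partner of Myc, by 0.80. Myc changed by 0.95 and was not called (limma adjusted p = 0.0713), with levels of -1.34, 0.40, -0.90 and -0.80 in controls and 0.34, 0.73, 0.20 and -0.12 after furan; Mtor changed by 0.04. None of the 8 tested S6 kinases was called (0 higher and 1 lower at an unadjusted p below 0.05). Of the 10 ribosome checkpoint and recycling genes 1 was called (10%, below the 17.3% of all features called higher), Mdm2, higher by 0.55.

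The mitochondrial ribosomal proteins, a separate set made in the cytosol for another ribosome, had 19 of 71 called higher (26.8%) and 1 lower, with a median of 0.18. Mrpl45 rose by 0.97 and Mrps22 by 0.91, and Mrps15 fell by 0.59. All these lists together held 281 tested genes, with a median of 0.18. Of these, 77 were called higher (27.4%) and 10 lower (3.56%), beside 17.3% and 16.9% of all features.

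**Figure D4:**
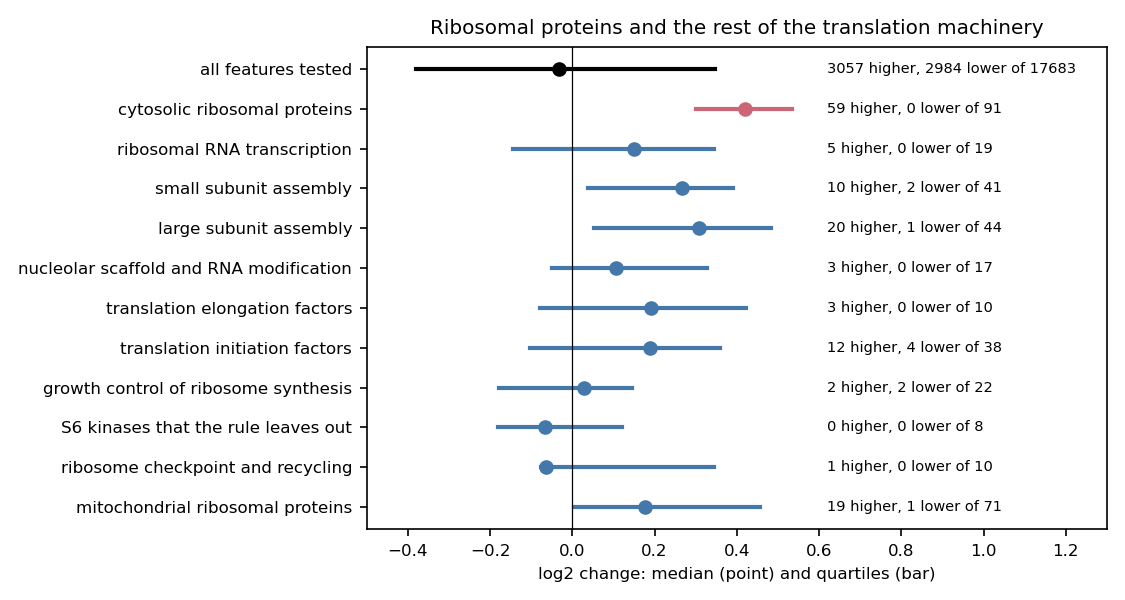
Median log2 change, furan minus control (point), and quartiles (bar) of the ribosomal protein genes (red), of other lists of the translation machinery (blue) and of all features tested (black), with the number called in each direction at the right. Of the lists drawn, the ribosomal proteins have the highest median, 0.42, and the next are the large subunit assembly genes at 0.31; the few ribosomal proteins outside the naming rule are not drawn.

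Some sets of cell markers differed between the groups and others did not. Their counts are set beside the 17.3% of all features called higher and 16.9% called lower. Of 10 proliferation markers, 9 were called higher, with a median log2 change of 2.67 (Mki67 by 2.47 and Top2a by 2.72; Aurkb was well above background on 1 of the 4 control arrays, so its control level is only a bound on the others), and their summed level on the linear scale was 0.988 to 1.54 in controls and 2.82 to 5.36 after furan. Of 10 hepatocyte markers, 8 were called lower and 1, Apoa1, higher, with a median of -0.64 and a summed level of 1748 to 2068 in controls and 1236 to 1519 after furan. All 10 passed the detection filter, and no defining hepatocyte marker was at 0. Of 7 biliary markers 3 were called higher, with sums of 0.689 to 5.31 in controls and 1.39 to 8.75 after furan, the highest of each group on control array 2 and furan array 1. None of 7 macrophage (sums 21.1 to 30.8 and 18.3 to 22.8), 7 lymphocyte (0.455 to 0.813 and 0.453 to 1.00) and 8 stellate and matrix markers (4.50 to 11.7 and 6.16 to 24.0) was called at adjusted p below 0.05. At an unadjusted p below 0.05, 1 macrophage marker was lower and none of the lymphocyte or stellate markers was called. In bulk tissue, more cells of a type and more RNA per cell cannot be told apart, and the part of these markers in the ribosomal protein result was not tested. Control array 2 and furan array 1 also had the most scatter between replicate spots (median coefficients of variation 9.38% and 12.8%, against 4.20% to 7.57% on the others). Without both, 38 of the ribosomal protein genes were called higher, beside 2521 of all 17683 features, and the median change was 0.45.

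**Figure D5:**
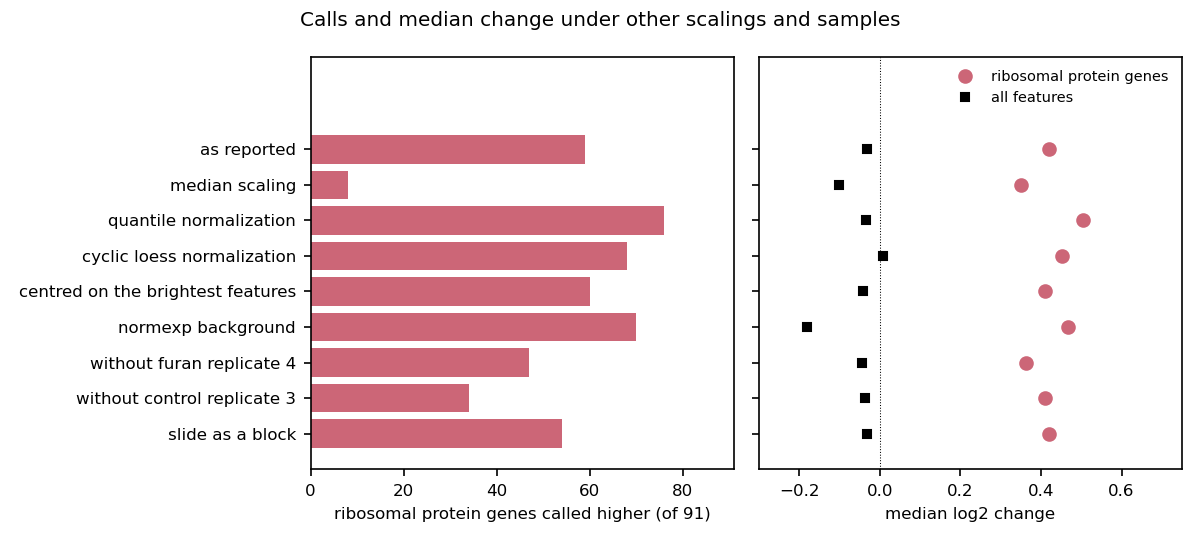
Number of the 91 ribosomal protein genes called higher (bars, left), and their median log2 change (red) beside that of all features (black, right), as reported and with other scalings or samples. The median change stays between 0.35 and 0.50 over these settings, while the count runs from 8 with median scaling to 76 with quantile normalization.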

How the data were processed

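Per the file headers and the submitters' processing notes, Agilent Feature Extraction 10.7 read the spots; each deposited scanner file holds a background-subtracted processed intensity per spot, on a linear scale. The authors' deposited series table held that intensity rescaled so that every array's 75th percentile is 1000 (largest log2 deviation 0.00013).

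Control spots and spots marked non-uniform or outlying were left out, and spots of a probe averaged. The level is log2 of the processed signal minus that of the array's 75th percentile, which was 827 to 1057 on control and 1256 to 1596 on furan arrays; no spot was saturated. A probe was tested if well above background on all 4 arrays of a group (20268 probes), and the brightest tested probe stood for its gene. Symbols came from the array annotation and RefSeq. Furan was compared with control in limma 3.58.1 (R 4.3.3; lmFit and eBayes, two-sided), with Benjamini-Hochberg adjustment over 17683 features and a threshold of 0.05; the script was tested on simulated data. The number of arrays limits the precision.

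Named genes were the 6 largest called rises and falls, the stalk proteins, Rpsa, Rps6, Rpl5, Rpl11, Rps27a, paralogues with their parents, the 2 largest called rises and falls of each other list, and 8 set regulators and factors; probe pairs, promoter examples and genes near the threshold were added after their values were seen. The members and lists were chosen with earlier results of these data known. The sample labels do not say whether replicate numbers pair rats, and rats were treated as unpaired. Deviations of equal numbers correlated at -0.30, 0.12, 0.28 and 0.04 across features, and those of unequal numbers at -0.43 to 0.53. These correlations cannot settle whether rats were paired. Other scalings, filters, blocks and left-out arrays were tried. Sequences are from RefSeq (GRCr8 promoters) and the array annotation (rn4 probes); 16 further probes carry a current symbol that would match the naming rule but another array name, and were not counted as members. Some genes counted here are not reported by name.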

Additional observations from a re-analysis of the deposited data

Results flagged for a closer look

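In 150 groups of 4 arrays (the named genes in each treatment group), 6 had 1 array far from the other 3, by a measure that flags about 1 group in 20 by chance. Among the ribosomal protein genes, Rpl22l1 on furan array 4 was at 2.98, above the other furan arrays (2.64 to 2.69), and Rps27 on control array 4 was at 5.81, above the other controls (5.68 to 5.69). Among the other genes, Eif1a on furan array 1 was at 0.95, below 1.14 to 1.16. Gar1 on control array 4 was at -1.84, above -2.06 to -2.03. Mphosph10 on furan array 3 was at 0.40, above 0.21 to 0.24. Tma16 on control array 3 was at -1.50, below -1.24 to -1.19.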

How the results depend on the processing

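The median change of the ribosomal protein genes stayed above 0 and between 0.35 and 0.50 under all 23 alternatives, with 0 genes called lower in each, and 85 of the 91 genes had a positive change under every one. The count called higher, 59 as reported, was 8 with median scaling (8.79%, below the 10.2% of all features). At an unadjusted p below 0.05 it was 33 with that scaling, against 15.9% of all features. The count was 0 on slide 1 alone and 0 on slide 2 alone (2 rats a group). At an unadjusted p below 0.05 these slides gave 23 and 38, against 13.8% and 16.7% of all features. Without control 2 and furan 1 the count was 38. Leaving out 1 array at a time gave 34 (without control array 3) to 66 (without furan array 1), with medians of 0.36 to 0.48. Of all 17683 features, 2264 and 3017 were called higher without those arrays. With the replicate number as a block, a pairing that the labels do not state, 41 were called, beside 2383 of all 17683 features. Called under every setting but the single slides were 8 genes, among them Rpl12, Rpl23a, Rpl3, Rpl31l3, Rps19, Rps19l1 and Rps26; 31 were if median scaling was left out too. The series-scaled medians of control array 2 (114.7) and furan array 1 (124.8) stood above those of the other arrays (91.5 to 104.5).

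For the other lists of the translation machinery (77 higher and 10 lower as reported), the counts higher and lower were 22 and 5 with median scaling, 48 and 4 with no filter on dim probes, 45 and 6 with the replicate block, 1 and 0 on slide 1, and 7 and 1 on slide 2. Lower calls were 22 with normexp background correction and 6 without control 2 and furan 1. Leaving out 1 array gave 43 to 72 higher and 5 to 11 lower. Over all features (3057 higher, 2984 lower), median scaling gave 1802 higher. Slide 1 gave 322 higher and 219 lower, slide 2 845 and 613. Normexp gave 6010 lower, so that 31.8% of its calls were higher against 50.6% as reported, and moved the median of all features from -0.03 to -0.18. Leaving out 1 array gave 2241 to 3017 higher and 1936 to 3011 lower. The cause of these differences was not tested. Array number and signal over background limit the dimmer genes, Rpl39l among them, and the spread between rats limits Rpl10l.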
